A study of Mus musculus with 8 samples.

Results

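Mouse embryonic stem (ES) cells edited with Cas9 to lack Pcgf5 (Pcgf5KO, 2 libraries) were compared with unedited wild-type ES cells (WT, 2 libraries). These 4 libraries were taken by genotype from a set of 8, which also holds 2 libraries of cells lacking Pcgf3 (Pcgf3KO) and 2 of double knockout cells (DKO). All cells were of strain C57BL/6 and grew in fetal calf serum with leukemia inhibitory factor on a layer of mitomycin-treated mouse embryonic fibroblasts. Messenger RNA was selected by its poly-A tail and sequenced. The labels do not say whether the paired libraries came from separate clones or cultures, so p-values measure only the spread between these libraries, which may be technical.

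Polycomb repressive complex 1 (PRC1) ubiquitinates a core histone through its RING1 or RNF2 subunit and is known for holding developmental genes silent in ES cells. Each PRC1 complex carries one of several PCGF proteins, which sort it into canonical forms, built on PCGF2 or BMI1, and variant forms. PCGF5 and its close relative PCGF3 are alternative subunits of the same kind of variant complex, with partners such as AUTS2.

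Total counts were 17385443 and 12652616 in the Pcgf5KO libraries and 17493194 in WT replicate 2, and 18073291 to 19923964 in the Pcgf3KO and DKO libraries. WT replicate 1 is covered by a table that breaks off after 8093 of 47069 genes (3459002 counts). Genes listed in all 8 libraries were therefore tested against both WT libraries. Their level is given here as listed-gene CPM, scaled to the counts on those 8093 genes alone, which hold 17.58% to 17.86% of the counts of the 7 full libraries. All other genes were tested in the 7 full libraries against WT replicate 2 alone, whose spread is taken from the paired libraries of the knockouts, and are given as CPM, scaled to all counts of a library. A fold change is log2 of Pcgf5KO over WT, ± its standard error. A gene is said to have risen, fallen or been called when its Benjamini-Hochberg adjusted p was at most 0.05 in edgeR's quasi-likelihood test, adjusted over all genes of the fit.

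Pcgf5 (chromosome 19, 36379067 to 36456192, mm10) had 12.3 and 9.06 CPM in Pcgf5KO and 20.7 CPM in WT replicate 2. Both Pcgf5KO libraries lay under that WT library, under the Pcgf3KO libraries (17.3 and 17.4 CPM) and under the DKO libraries (13.5 and 13.9 CPM). The fall against WT passed the test (−0.94 ± 0.18, adjusted p = 0.0292), and transcript remained in both libraries. A count over the whole gene does not show the edited part, and the adjusted p reached 0.23 when 1 Pcgf5KO library was left out. Of the other PCGF genes, Pcgf3 (chromosome 5, 108461232 to 108506976, mm10) had 92.3 and 94.1 CPM in Pcgf5KO and 109.7 CPM in WT (−0.24 ± 0.14, adjusted p = 0.397). Pcgf1, Pcgf2 and Pcgf6, each the mark of another PRC1 form, had fold changes of −0.03, 0.06 and 0.18, and Bmi1 had −0.37 ± 0.25, all short of the threshold. Pcgf3 passed in 4 of 12 alternatives (lowest adjusted p = 0.000716). None of the 38 other PRC1 genes tested was called, while without the DKO libraries 9 rose and 6 fell (39.47%, against 26.6% of all genes). Among the 38, the catalytic subunits Rnf2 and Ring1 had −0.16 ± 0.10 and 0.67 ± 0.21, and the PCGF5 partner Auts2 had −0.06 ± 0.12. Of 13 subunits of the second Polycomb complex, PRC2, 1 rose: Phf19, an accessory subunit that binds methylated histone, had 75.8 and 80.2 CPM in Pcgf5KO and 55.5 CPM in WT (0.49 ± 0.10, adjusted p = 0.0373).

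**Figure D1:**
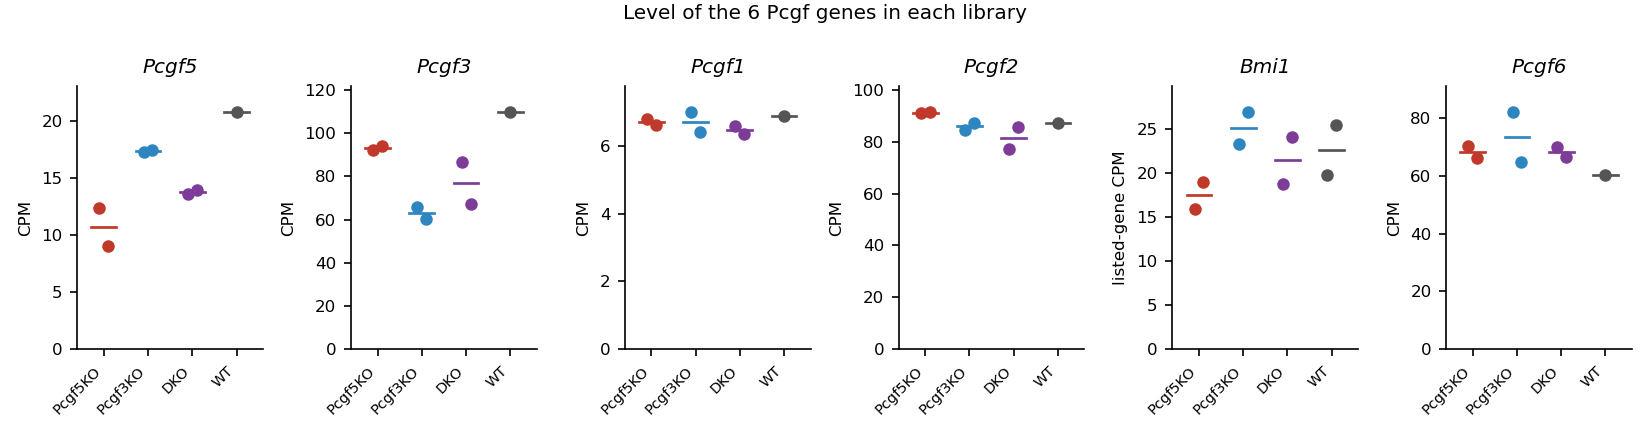
Level of the 6 Pcgf genes in each library (vertical axis, CPM, or listed-gene CPM for Bmi1; points are libraries, bars are means). Pcgf5 sits at 12.3 and 9.06 CPM in Pcgf5KO and 20.7 CPM in WT, and WT has 1 library for every gene but Bmi1.

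Of 15571 genes tested in either set, 281 rose in Pcgf5KO (1.8%) and 333 fell (2.14%). Among the genes that both WT libraries cover, 117 of 2702 rose (4.33%) and 116 fell (4.29%), together 8.62%, with median fold changes of 0.61 and −0.63. Most changes were small: 90 of the 281 rises and 113 of the 333 falls went beyond 2-fold, and the median over all tested genes was 0.00. WT replicate 1 took no part in the 7-library fit, in which 205 genes rose (1.31%) and 263 fell (1.68%). For 41 rises and 45 falls of that fit the gene was also tested with both WT libraries. In all of them both Pcgf5KO libraries lay beyond WT replicate 1 in the same direction, against 41.76% and 41.1% of all 2701 genes tested in both. The same Pcgf5KO libraries made these calls, and the 2701 include genes not set apart from WT replicate 2, so this is no independent test of the calls. The 2 DKO libraries enter the shared estimate of spread and correlate less with each other (0.985, across genes) than the paired libraries of the other groups (0.991 to 0.994). Without them 4024 of 15149 genes were called (26.6%), so the number of calls rests on which libraries set the spread. In the fit without DKO, genes tested against WT replicate 2 alone take their spread from the Pcgf3KO and Pcgf5KO pairs. The mean chi-square per gene, a measure of how far paired libraries differ, was 4.66 and 1.91 in those pairs. It was 7.04 in the WT pair and 21.9 in the DKO pair, over genes listed in all 8 libraries. Calls counted without DKO may therefore rest on too small a spread for WT. Protein-coding genes made up 266 of the rises and 332 of the falls. Most of the named calls were lost in at least 1 alternative fit, such as with a library left out, including many for which no loss is mentioned below.

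**Figure D2:**
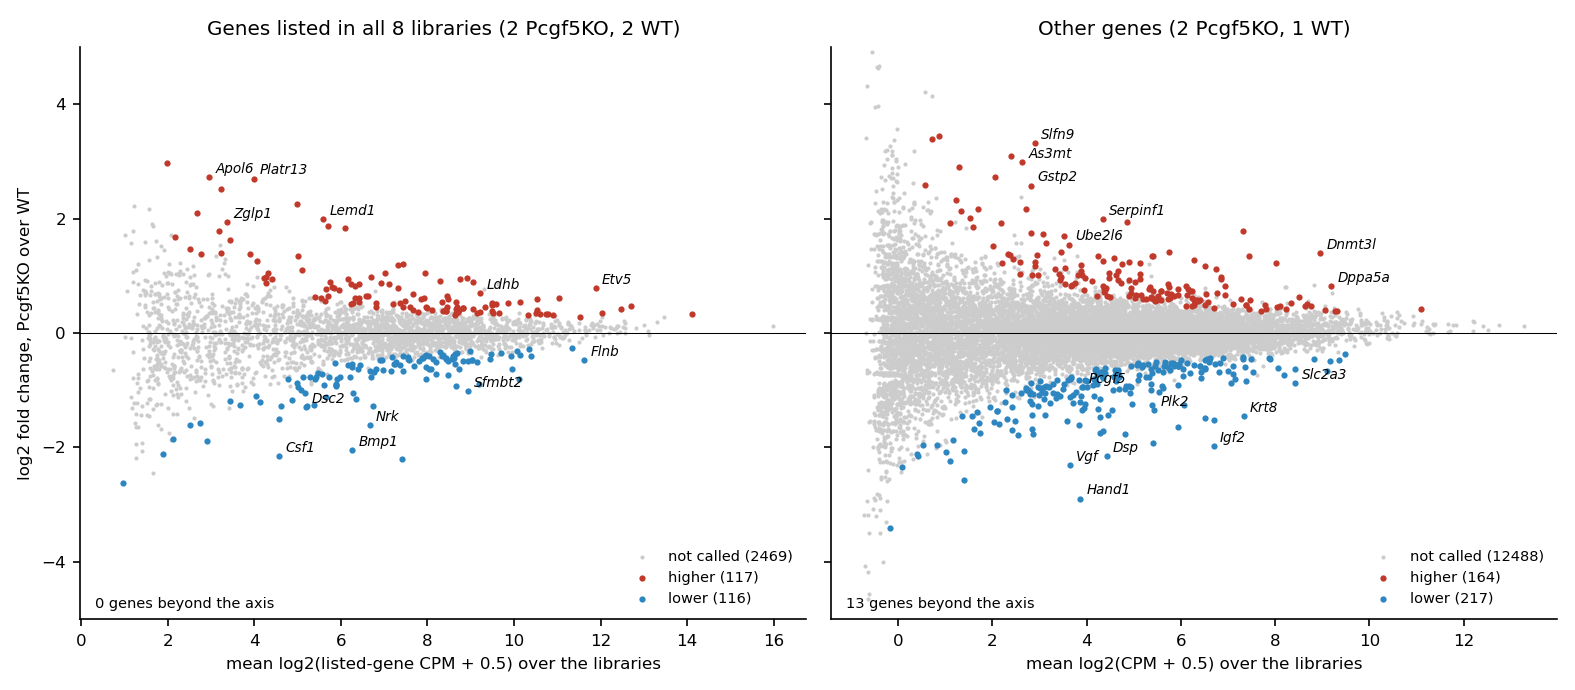
Fold change of Pcgf5KO over WT (vertical axis, log2) against mean level (horizontal axis, log2 of the level plus 0.5) for genes listed in all 8 libraries (left) and the other tested genes (right). Red points rose (117 and 164), blue points fell (116 and 217) and grey points were not called; 13 genes lie beyond the vertical range on the right.

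Several genes rose against both WT libraries, among them noncoding and germline transcripts. Platr13, a noncoding RNA of a family associated with pluripotency, had 39.2 and 50.2 listed-gene CPM in Pcgf5KO, against 6.57 and 7.07 in WT (2.70 ± 0.24, adjusted p = 0.000134). Its 2 Pcgf5KO values stand at the level of the DKO libraries (50 and 49.5), while Pcgf3KO had 2.84 and 3.79, under WT. Lemd1, a LEM-domain gene best known as a cancer-testis antigen in human, had 52.5 and 55.2 in Pcgf5KO, against 11.7 and 15.4 in WT (1.99 ± 0.21). Pcgf3KO libraries stood higher still for this gene, at 108 and 103. Ptprtos, an antisense transcript of the phosphatase gene Ptprt, had 69.4 and 75.6 in Pcgf5KO, against 20.3 and 18.9 in WT (1.88 ± 0.17). D1Pas1, a DEAD-box RNA helicase gene of male germ cells with related copies elsewhere in the genome, had 97.6 and 96.4 in Pcgf5KO, against 25.4 and 28.9 in WT (1.84 ± 0.17). In each of these genes the Pcgf5KO values were several times those of both WT libraries. Etv5, an ETS factor induced by FGF signalling, had 4771 and 4883 in Pcgf5KO, against 2753 and 2833 in WT (0.79 ± 0.06, adjusted p = 0.000134).

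Other genes rose too. Apol6, which overlaps Mb on the other strand, had 12.6 and 15.8 listed-gene CPM in Pcgf5KO, against 2.86 and 1.28 in WT (2.72 ± 0.42). Lgals9, a galectin, had 159 and 163, against 90.3 and 65.2 in WT (1.05 ± 0.14). Several more were called against WT replicate 2 alone. As3mt, an arsenic methyltransferase, had 7.16 and 7.44 CPM in Pcgf5KO and 0.911 CPM in WT (2.99 ± 0.37). Serpinf1, which encodes the secreted protein PEDF, had 25.1 and 23.6 CPM in Pcgf5KO and 6.15 CPM in WT (1.99 ± 0.19). Xbp1, a transcription factor of the unfolded protein response, had 127 and 136 CPM in Pcgf5KO and 60.7 CPM in WT (1.11 ± 0.12). Maml2, a Notch coactivator, had 6.45 and 6.47 CPM in Pcgf5KO and 0.968 CPM in WT (2.73 ± 0.33), and just missed the threshold without Pcgf5KO replicate 1. Platr13, Lemd1, Ptprtos, D1Pas1, Etv5, Apol6, Lgals9, As3mt, Serpinf1 and Xbp1 passed in every alternative run.

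The falls against both WT libraries included extracellular and signalling genes. Csf1, the macrophage growth factor, had 15.6 and 16.3 listed-gene CPM in Pcgf5KO, against 67.4 and 74.5 in WT (−2.15 ± 0.22, adjusted p = 0.000203). Bmp1, a metalloproteinase that trims procollagens, had 41.9 and 44.3 in Pcgf5KO, against 166 and 192 in WT (−2.05 ± 0.23, adjusted p = 0.000321). For Csf1 and Bmp1, each Pcgf5KO library lay far under the lower WT library. Nrk, an X-linked kinase gene active in placenta, had 60.4 and 69.2 in Pcgf5KO, against 177 and 216 in WT (−1.60 ± 0.14). Tmcc3 had 70.4 and 86.0 in Pcgf5KO, against 213 and 162 in WT (−1.27 ± 0.16). Sfmbt2, an imprinted Polycomb-group gene, had 349 and 342 in Pcgf5KO, against 759.7 and 640.4 in WT (−1.02 ± 0.11, adjusted p = 0.000363). For Sfmbt2 the Pcgf5KO libraries were also under the Pcgf3KO (472 and 468) and DKO (563 and 456) libraries. Cald1, an actin- and myosin-binding protein gene, had 476 and 491 in Pcgf5KO, against 863 and 924 in WT (−0.89 ± 0.08). Csf1, Bmp1, Nrk, Tmcc3, Sfmbt2 and Cald1 passed in every alternative run.

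**Figure D3:**
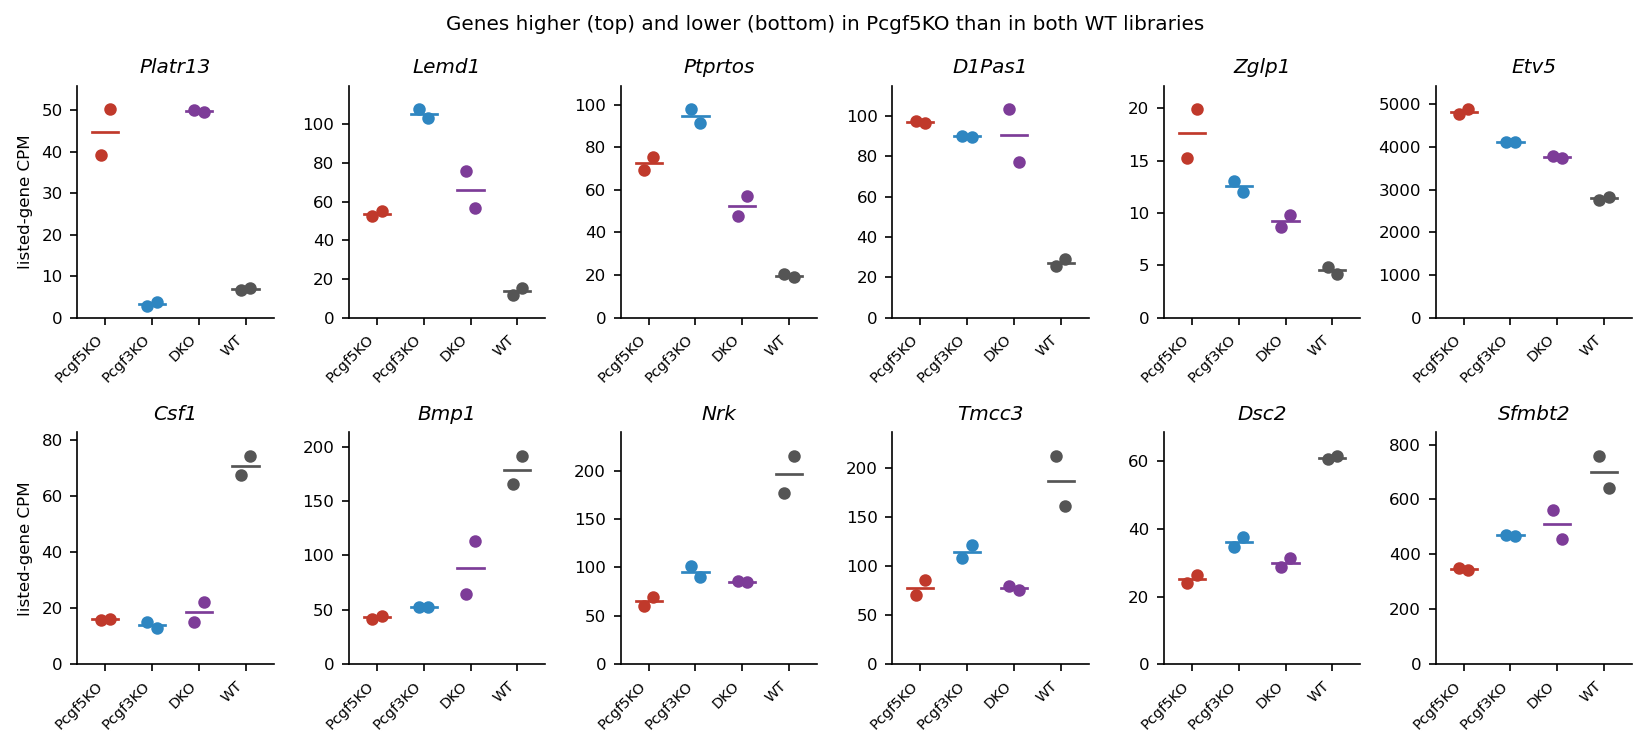
Listed-gene CPM (vertical axis) of 6 genes that rose (top) and 6 that fell (bottom) in Pcgf5KO against both WT libraries; points are libraries and bars are means. Pcgf5KO and WT libraries do not overlap in any panel, while Pcgf3KO libraries lie under WT for Platr13 (2.84 and 3.79) and above Pcgf5KO for Lemd1 (108 and 103).

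Against WT replicate 2 alone, the largest fall among the named genes was Hand1, a transcription factor of trophoblast and early mesoderm, with 6.98 and 5.18 CPM in Pcgf5KO and 45.8 CPM in WT (−2.89 ± 0.50, adjusted p = 0.0196). Its DKO libraries had 16 and 46.4 CPM, and the call was lost without either Pcgf5KO library (adjusted p up to 0.18). Vgf, a neuropeptide precursor, had 8.88 and 9.22 CPM in Pcgf5KO and 44.9 CPM in WT (−2.31 ± 0.20, adjusted p = 0.000997). Dsp, the desmosomal plaque protein, had 16 and 15.5 CPM in Pcgf5KO and 70.0 CPM in WT (−2.15 ± 0.18, adjusted p = 0.000997). Each pair of Pcgf5KO values for Vgf and Dsp lay close together and far under the WT library. Igf2, the imprinted fetal growth factor, had 67.0 and 69.8 CPM in Pcgf5KO and 268 CPM in WT (−1.97 ± 0.22), and just missed the threshold without Pcgf5KO replicate 1. Car2, a carbonic anhydrase, had 12.2 and 11.4 CPM in Pcgf5KO and 36.1 CPM in WT (−1.61 ± 0.14). Vgf, Dsp and Car2 passed in every alternative run.

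Targets of YAP, the transcriptional coactivator of the Hippo pathway, fell most often among the lists examined. Of 23 tested, 0 rose and 11 fell (47.8%, against 2.14% of all tested genes that fell), and the median fold change was −0.83. In 22 of the 23 both Pcgf5KO libraries lay under WT, against 39.1% of all genes. For all but 3 of the 23, WT is replicate 2 alone. Thbs1, a matricellular protein gene, had 16.7 and 20.5 CPM in Pcgf5KO and 62.0 CPM in WT (−1.75 ± 0.16). Ccn1, a matricellular gene often used as a YAP readout, had 51.9 and 49.0 CPM in Pcgf5KO and 158 CPM in WT (−1.65 ± 0.15). Myof, a membrane repair gene, had 20.1 and 21.4 CPM in Pcgf5KO and 70.8 CPM in WT (−1.77 ± 0.17). All 3 lay far under the WT library and passed in every alternative run. Amotl2, an angiomotin that binds YAP, had 134 and 129 CPM in Pcgf5KO and 229.9 CPM in WT (−0.80 ± 0.10). Summed over the list, the level was 1330 and 1330 CPM in Pcgf5KO and 1890 CPM in WT replicate 2. Pcgf3KO had 1390 and 1400 CPM and DKO 1460 and 1400 CPM, so the lower level was not particular to Pcgf5KO. Without the DKO libraries 17 of the 23 fell, against 13.3% of all genes.

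Genes of the extracellular matrix and of epithelial junctions gave more falls than rises among their calls. In the list of collagens and basement membrane genes, 10 of 42 fell and 1 rose, with a median of −0.46. Over all tested genes 2.14% fell and 1.8% rose. Col4a1 and Col4a2, the collagen IV chains of the basement membrane, share a promoter region and overlap head to head. Col4a1 had 70.6 and 72.5 CPM in Pcgf5KO and 200.4 CPM in WT (−1.49 ± 0.13), and Col4a2 had 29.3 and 31.3 CPM in Pcgf5KO and 114 CPM in WT (−1.92 ± 0.20). The exception was Lama3, a laminin chain of epithelial basement membranes, which rose to 71.7 and 71.2 CPM in Pcgf5KO, against 40.2 CPM in WT (0.83 ± 0.10). Among keratins, desmosome and junction genes, 10 of 32 fell and 1 rose, with a median of −0.18. Both Pcgf5KO libraries lay under WT for 19 of them, against 39.1% of all genes, and above WT for 11. Krt8, the type II keratin of simple epithelia, had 153 and 154 CPM in Pcgf5KO and 418 CPM in WT (−1.45 ± 0.21). Its partner Krt18 had 93.9 and 99.2 CPM in Pcgf5KO and 278 CPM in WT (−1.53 ± 0.24). Dsc2, a desmosomal cadherin, had 23.9 and 26.2 listed-gene CPM in Pcgf5KO, against 60.6 and 61.7 in WT (−1.29 ± 0.17). The 1 rise was Krt42, with 45.3 and 48.0 CPM in Pcgf5KO and 18.3 CPM in WT (1.35 ± 0.12). Smooth muscle and actin genes had 6 falls and 1 rise of 27, and annexins, S100 and galectins had 4 falls and 1 rise of 22. Anxa5, a calcium-dependent phospholipid-binding protein gene, had 79 and 71 listed-gene CPM in Pcgf5KO, against 148 and 187 in WT (−1.15 ± 0.21, adjusted p up to 0.12 with 1 library left out). Lists share members, such as Bmp1 and Krt8, and were drawn up with earlier results of these data known.

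Fibroblasts of the feeder layer express many of these matrix genes. Of 27 feeder markers 22 were tested and 1 fell, against 2.14% of all tested genes. It was Col1a1, with 7.34 and 7.93 CPM in Pcgf5KO and 16.2 CPM in WT (−1.09 ± 0.22, adjusted p = 0.0317). The median over the 22 was −0.39. Both Pcgf5KO libraries lay under WT for 18 of them, against 39.1% of all genes, and above WT for 2. Without the DKO libraries 10 fell and 0 rose, against 13.3% of all genes each way. Col5a2 had 3.91 and 5.01 CPM in Pcgf5KO and 11.3 CPM in WT replicate 2, and Pdgfrb had 1.06 and 1.70 CPM in Pcgf5KO and 3.08 CPM in WT replicate 2, neither called (both named after their values were seen). Summed over the list, the level was 1460 and 1520 CPM in Pcgf5KO and 1650 CPM in WT replicate 2, and Fn1, which makes up most of that sum, overlapped between groups, at 5587 and 5851 listed-gene CPM in Pcgf5KO and 4589 and 6154 in WT. S100a4 had 0 counts in both Pcgf5KO libraries and in WT replicate 2, and Postn, Twist2, Prrx1 and Fap had at most 4 counts in a Pcgf5KO library and 3 in WT replicate 2. The part of feeder RNA in the falls of matrix genes was not tested. In these bulk samples, fewer cells of a type and less RNA per cell cannot be told apart.

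**Figure D4:**
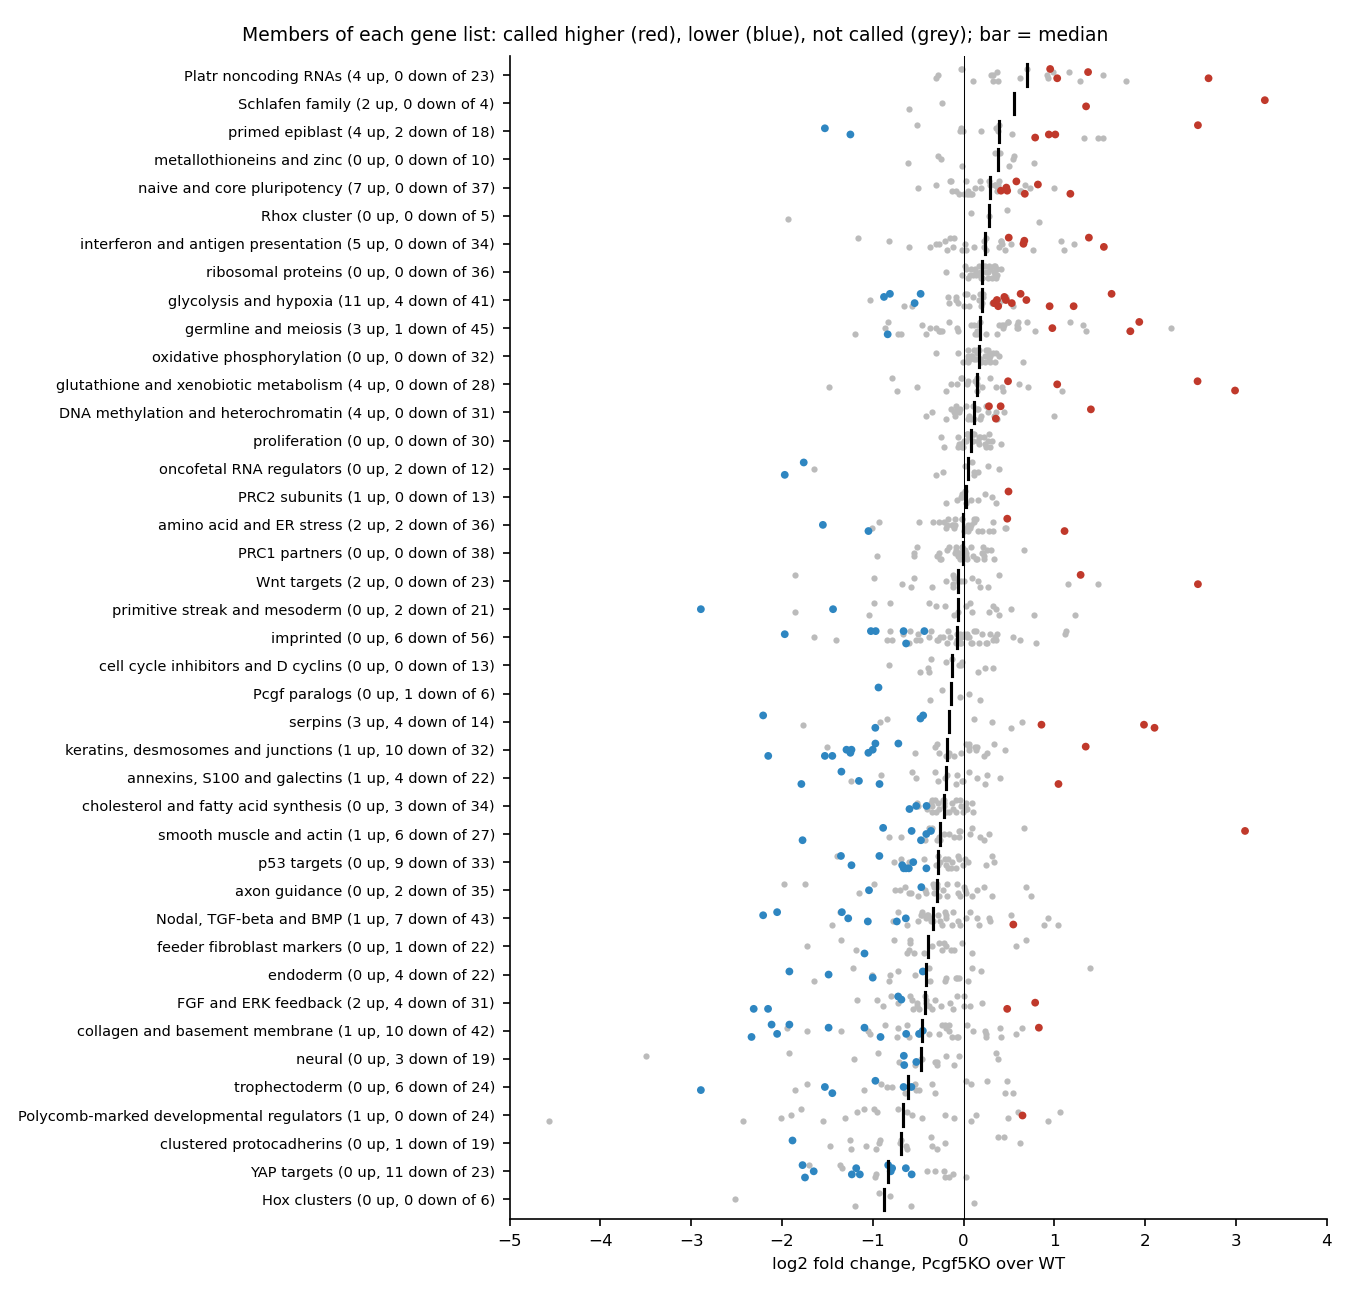
Fold change of Pcgf5KO over WT (horizontal axis, log2) for each tested member of 41 gene lists, ordered by median (black bar). Red members rose, blue members fell and grey members were not called; YAP targets have 11 falls of 23 and Platr noncoding RNAs have 4 rises of 23.

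Markers of the ES cell state were present in all full libraries, and those that moved rose. Of 37 naive and core pluripotency genes, 7 rose and 0 fell, with a median of 0.29, where 1.8% of all tested genes rose and 2.14% fell. Without the DKO libraries 21 rose and 1 fell, against 13.3% of all genes each way. Dppa5a, an RNA-binding protein gene of pluripotent cells, had 689.8 and 727 CPM in Pcgf5KO and 402 CPM in WT (0.82 ± 0.11, adjusted p = 0.00685). Nr5a2, a nuclear receptor that can activate Pou5f1, had 74.2 and 70.3 CPM in Pcgf5KO and 45.3 CPM in WT (0.68 ± 0.11, adjusted p = 0.0141). Mycn had 479.9 and 480.4 CPM in Pcgf5KO and 346 CPM in WT (0.47 ± 0.08, adjusted p = 0.0208). Each Pcgf5KO library was above the WT library, and each of these calls was lost without either Pcgf5KO library. Those of Nr5a2 and Mycn were also lost without either Pcgf3KO library. Pou5f1 itself had 259.9 and 261 CPM in Pcgf5KO and 196 CPM in WT (0.41 ± 0.09, adjusted p = 0.0383), while Sox2 had 376 and 379 CPM and 367 CPM in WT (0.04 ± 0.08, adjusted p = 0.834). Nanog and Esrrb did not pass (0.38 ± 0.16 and −0.13 ± 0.12). Of 18 primed epiblast genes, 4 rose and 2 fell. Foxd3, a forkhead factor, had 30.5 and 31.0 CPM in Pcgf5KO and 15.3 CPM in WT (1.01 ± 0.15), and Lef1, a Wnt effector with few counts, had 1.78 and 1.70 CPM in Pcgf5KO and 0.285 CPM in WT (2.58 ± 0.56, adjusted p = 0.0429). The 2 that fell were Cdh2, with 13.3 and 11 CPM in Pcgf5KO and 28.9 CPM in WT (−1.25 ± 0.16), and Krt18. Of 23 Platr noncoding RNAs, 4 rose and 0 fell, with a median of 0.70.

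Lineage genes that passed the test fell, where 2.14% of all tested genes fell and 1.8% rose. Of 24 trophectoderm genes 6 fell and 0 rose (median −0.61), of 22 endoderm genes 4 fell, of 21 primitive streak and mesoderm genes 2 fell, and of 19 neural genes 3 fell. Members that fell in the trophectoderm list were Hand1, Krt18, Krt8 and Peg10, with 442 and 445 CPM for Peg10 in Pcgf5KO and 701 CPM in WT (−0.66 ± 0.09), and Krt7 and Tfap2c. Tbx20, a heart transcription factor, had 5.56 and 6.39 CPM in Pcgf5KO and 16.1 CPM in WT (−1.44 ± 0.19). Olig2, a neural transcription factor, had 58.4 and 57.7 CPM in Pcgf5KO and 83.2 CPM in WT (−0.52 ± 0.11). Of 39 Hox genes 6 passed the filter on low counts and 0 were called, and of 56 Polycomb-marked developmental regulators 24 were tested and 1 rose. The median over the 24 was −0.67, and 15 of them had both Pcgf5KO libraries under WT, against 39.1% of all genes. In the 7-library fit the filter lets a gene pass on 1 library, so a gene near the floor can enter through WT replicate 2 alone. Foxl2 was such a gene, with 17 counts there and 1 and 0 in Pcgf5KO. How far such members set the median and the 15 was not tested. Their summed level was 90.6 and 91.2 CPM in Pcgf5KO and 84.9 CPM in WT. Without the DKO libraries 2 of the 24 rose and 8 fell (41.67% called, against 26.6% of all genes).

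Germline, imprinted and heterochromatin genes gave calls in small numbers, where 1.8% of all tested genes rose and 2.14% fell. Of 45 germline genes 3 rose and 1 fell. Zglp1, a germ cell GATA-like factor, had 15.3 and 19.9 listed-gene CPM in Pcgf5KO, against 4.86 and 4.17 in WT (1.94 ± 0.32, adjusted p = 0.00467), and Tdrd12, a piRNA pathway helicase gene, had 133 and 123 CPM in Pcgf5KO and 64.9 CPM in WT (0.98 ± 0.13). Tex15 fell to 17.8 and 16.6 CPM in Pcgf5KO, against 30.7 CPM in WT (−0.84 ± 0.18). Of 56 imprinted genes 6 fell and 0 rose. Besides Igf2, Sfmbt2 and Peg10, Grb10, an adaptor that restrains growth factor receptors, had 352 and 358 CPM in Pcgf5KO and 550.4 CPM in WT (−0.63 ± 0.13). Of 31 genes of DNA methylation and heterochromatin 4 rose. Dnmt3l, the cofactor of the de novo methyltransferases, had 564 and 559 CPM in Pcgf5KO and 212 CPM in WT (1.40 ± 0.09, adjusted p = 0.000692), and passed in every alternative run. Uhrf1, the maintenance methylation factor, had 588 and 572 CPM in Pcgf5KO and 437 CPM in WT (0.41 ± 0.09), and Ehmt2, the H3K9 methyltransferase G9a, had 1690.0 and 1718 listed-gene CPM in Pcgf5KO, against 1325 and 1337 in WT (0.36 ± 0.08).

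Serpins moved both ways, with 3 rises and 4 falls of 14, where 1.8% of all tested genes rose and 2.14% fell. Besides Serpinf1, Serpina3i, one of a cluster of near-identical copies, had 8.97 and 10.9 listed-gene CPM in Pcgf5KO, against 2.86 and 1.61 in WT (2.10 ± 0.44), and Serpine2, a thrombin inhibitor, had 23.9 and 22.0 CPM in Pcgf5KO and 45.1 CPM in WT (−0.97 ± 0.18). Of 12 oncofetal RNA regulators and their targets 2 fell, Igf2 and Hmga2, a chromatin protein gene, with 4.26 and 4.53 CPM in Pcgf5KO and 14.9 CPM in WT (−1.76 ± 0.27). Of 19 clustered protocadherins 1 fell, Pcdhgc5, whose reads overlap those of other genes of its cluster (4.65 and 3.62 listed-gene CPM in Pcgf5KO, against 17.1 and 14.1 in WT, −1.89 ± 0.40). Of 35 axon guidance genes 2 fell, Epha4 (−1.04 ± 0.21) and the netrin receptor Unc5b, with 165 and 149.8 listed-gene CPM in Pcgf5KO, against 207 and 228 in WT (−0.46 ± 0.11). None of 10 metallothionein and zinc genes and none of 5 Rhox genes was called, and of the 2-cell-like list 1 gene passed the filter on low counts and was not called. In the fit without the DKO libraries 4 of the 10 rose and 3 fell, and 1 of the 5 Rhox genes fell. There 13.3% of all genes were called each way.

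Signalling pathways changed in parts. In the list of Nodal, TGF-beta and BMP genes, 7 of 43 fell and 1 rose, where 2.14% of all tested genes fell and 1.8% rose. Tgfbr2, the TGF-beta type II receptor gene, had 14.9 and 19.5 listed-gene CPM in Pcgf5KO, against 39.1 and 43.0 in WT (−1.27 ± 0.21, adjusted p = 0.00536), and Bmp8b, a BMP ligand gene, had 11 and 12.7 CPM in Pcgf5KO and 29.9 CPM in WT (−1.34 ± 0.15). Bmp8b overlaps Ppie on the other strand, and the library kit does not mark strand. Of 31 FGF and ERK feedback genes 4 fell and 2 rose, with a median of −0.43. Both Pcgf5KO libraries lay under WT for 23 of the 31, against 39.1% of all genes, and above WT for 3. Called members moved in opposite directions: Etv5 rose, whereas Dusp6, the ERK phosphatase, fell to 104 and 109 CPM in Pcgf5KO, against 171 CPM in WT (−0.68 ± 0.13). Of 23 Wnt targets 2 rose, Lef1 and the secreted Wnt inhibitor Notum, with 7.22 and 8.17 CPM in Pcgf5KO and 3.13 CPM in WT (1.29 ± 0.24). Of 33 p53 targets 9 fell and 0 rose, with a median of −0.28. Plk2, a stress-induced kinase, had 35.4 and 36.1 CPM in Pcgf5KO and 91.0 CPM in WT (−1.35 ± 0.13, adjusted p = 0.00141). Btg2, an antiproliferative gene, had 23.7 and 24.3 CPM in Pcgf5KO and 45.6 CPM in WT (−0.93 ± 0.12), and Pmaip1, which encodes the apoptosis factor NOXA, had 72.9 and 78.2 CPM in Pcgf5KO and 120.5 CPM in WT (−0.68 ± 0.10). None of 13 cell cycle inhibitors and D cyclins and none of 30 proliferation genes was called. Without the DKO libraries 0 of the 13 rose and 5 fell, and 11 of the 30 rose and 2 fell. In that fit 13.3% of all genes were called each way.

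Metabolic genes moved both ways. Of 41 glycolysis and hypoxia genes 11 rose and 4 fell, with a median of 0.20, where 1.8% of all tested genes rose and 2.14% fell. Without the DKO libraries 19 rose and 7 fell, against 13.3% of all genes each way. Ldhb, a lactate dehydrogenase subunit, had 689 and 735 listed-gene CPM in Pcgf5KO, against 429 and 452 in WT (0.69 ± 0.09, adjusted p = 0.00115). Bnip3, a mitophagy gene induced by hypoxia, had 466 and 473 in Pcgf5KO, against 287 and 198 in WT (0.95 ± 0.16), and Tpi1, a glycolytic isomerase, had 415 and 428 CPM in Pcgf5KO and 273 CPM in WT (0.63 ± 0.09). The glucose transporter Slc2a3 went the other way, with 274 and 262 CPM in Pcgf5KO and 491 CPM in WT (−0.88 ± 0.08, adjusted p = 0.00117). Ldhb and Slc2a3 passed in every alternative run, while Bnip3 and Tpi1 lost the call without either Pcgf5KO library. Of 28 glutathione and xenobiotic genes 4 rose: As3mt, Gclm and the near-identical pair Gstp2 (9 and 8.73 CPM in Pcgf5KO and 1.48 CPM in WT, 2.58 ± 0.28) and Gstp1 (44.8 and 41.8 CPM in Pcgf5KO and 21.2 CPM in WT, 1.03 ± 0.14), whose reads the counting could have split. Of 34 cholesterol and fatty acid genes 3 fell and 0 rose, among them Idi1, with 145 and 125 CPM in Pcgf5KO and 204 CPM in WT (−0.60 ± 0.11). The median of the 34 was −0.21. Both Pcgf5KO libraries lay under WT for 24 of them, against 39.1% of all genes, and above WT for 4. Of 36 amino acid and ER stress genes 2 rose and 2 fell: Xbp1 and the arginine transporter Slc7a3 (0.48 ± 0.11) rose, and the stress factors Atf3 and Ddit3 fell (−1.55 ± 0.28 and −1.05 ± 0.19). Ddit3 (1047 counts over the 7 full libraries) overlaps Mars (38311 counts) on the other strand, and the library kit does not mark strand. None of 32 oxidative phosphorylation genes and none of 36 ribosomal protein genes was called, with medians of 0.17 and 0.21. Without the DKO libraries 14 of the 32 rose and 1 fell, and 26 of the 36 rose and 0 fell, against 13.3% of all genes.

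Interferon-linked genes gave 5 rises and 0 falls of 34, where 1.8% of all tested genes rose and 2.14% fell. Oas1a, an antiviral synthetase, had 18.3 and 14.9 listed-gene CPM in Pcgf5KO, against 4 and 8.99 in WT (1.38 ± 0.35, adjusted p = 0.0333). With 1 library left out its fold change was 0.90 to 2.05 and the call was lost in 5 of the alternatives. Ifitm1 and Ddx58, a membrane antiviral factor and the RNA sensor RIG-I, rose by 0.66 ± 0.11 and 0.67 ± 0.11 on the log2 scale. Ube2l6, the conjugating enzyme of the interferon-induced modifier ISG15, had 21.2 and 21.4 CPM in Pcgf5KO and 7.29 CPM in WT (1.55 ± 0.18, adjusted p = 0.00317), and just missed the threshold without Pcgf5KO replicate 1.

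Ube2l6 is one of 3 neighbours that rose together on chromosome 2. Along the chromosomes, 8 stretches held at least 3 called genes among 4 neighbouring tested genes, and in 7 of them the called genes moved one way. From 84798828 to 84863594 (mm10), Ube2l6, Smtnl1 and Slc43a1 rose. Smtnl1, a smoothelin-like muscle protein gene, had 9.35 and 10.3 CPM in Pcgf5KO and 1.14 CPM in WT (3.10 ± 0.28, adjusted p = 0.00116), and Slc43a1, an amino acid transporter, had 20.9 and 18.8 CPM in Pcgf5KO and 11.8 CPM in WT (0.75 ± 0.17). On chromosome 11, from 82979629 to 83226604, the Schlafen genes Slfn9 and Slfn3 and the neighbouring AI662270 rose. Slfn9 had 6.75 and 7.04 CPM in Pcgf5KO and 0.683 CPM in WT (3.32 ± 0.58), and Slfn3 had 35.9 and 40.7 listed-gene CPM in Pcgf5KO, against 16.3 and 13.5 in WT (1.35 ± 0.20, adjusted p = 0.00308). The Slfn9 call was lost without either Pcgf5KO library. Slfn10-ps, which lies between Slfn9 and Slfn3, was not called, with 1.18 and 1.13 CPM in Pcgf5KO and 1.765 CPM in WT (−0.60 ± 0.47). Nor was Slfn5, beside the stretch (−0.24 ± 0.36). Schlafen genes resemble each other, so reads could have been split between them.

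The promoters of 4 genes of these stretches are shown because the genes lie near each other and rose. Each runs from 250 bases before to 50 after the start (RefSeq, GRCm38.p6, 5′ to 3′ on the gene's strand), with CG dinucleotides in capitals. They lie at chr2:84798578-84798877 (Ube2l6, plus strand), chr2:84822603-84822902 (Smtnl1, minus strand), chr11:82991781-82992080 (Slfn9, minus strand) and chr11:83191080-83191379 (Slfn3, plus strand).
Ube2l6 promoter: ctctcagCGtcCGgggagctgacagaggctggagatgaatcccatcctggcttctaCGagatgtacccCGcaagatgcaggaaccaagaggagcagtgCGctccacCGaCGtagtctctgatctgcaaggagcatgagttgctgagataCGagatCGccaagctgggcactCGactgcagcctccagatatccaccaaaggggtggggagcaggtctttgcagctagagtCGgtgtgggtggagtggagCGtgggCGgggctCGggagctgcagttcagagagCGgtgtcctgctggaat
Smtnl1 promoter: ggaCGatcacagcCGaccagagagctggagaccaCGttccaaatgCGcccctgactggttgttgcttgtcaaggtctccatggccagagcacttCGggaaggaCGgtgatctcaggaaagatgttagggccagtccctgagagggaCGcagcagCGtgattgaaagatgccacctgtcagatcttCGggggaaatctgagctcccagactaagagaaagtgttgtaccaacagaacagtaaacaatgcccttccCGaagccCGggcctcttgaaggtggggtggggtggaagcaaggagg
Slfn9 promoter: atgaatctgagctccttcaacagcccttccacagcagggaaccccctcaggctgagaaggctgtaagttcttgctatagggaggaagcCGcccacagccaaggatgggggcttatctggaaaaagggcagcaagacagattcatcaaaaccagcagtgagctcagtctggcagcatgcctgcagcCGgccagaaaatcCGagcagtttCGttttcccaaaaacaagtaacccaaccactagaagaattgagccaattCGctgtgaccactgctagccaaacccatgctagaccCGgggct
Slfn3 promoter: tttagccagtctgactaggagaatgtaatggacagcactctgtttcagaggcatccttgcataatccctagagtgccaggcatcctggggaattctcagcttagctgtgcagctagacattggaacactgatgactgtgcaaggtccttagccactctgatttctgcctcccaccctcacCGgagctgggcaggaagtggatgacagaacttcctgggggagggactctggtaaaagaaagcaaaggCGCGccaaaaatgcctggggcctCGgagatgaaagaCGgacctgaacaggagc
The Ube2l6 and Smtnl1 promoters hold 15 and 11 CG dinucleotides and the Slfn9 and Slfn3 promoters 6 and 5, where the median is 20 over tested genes with a promoter in the table and 7 over all 32851 RefSeq promoters. None of the 4 holds CACGTG, the E-box bound by MGA and MAX of the PCGF6 complex (the letters are their own reverse complement), which 10.01% of the promoters of tested genes and 7.15% of all promoters hold. A comparison of promoters between called and other genes is void, since 11405 of the 15571 tested genes (227 of 281 that rose and 250 of 333 that fell) have a promoter in the table used.

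The other stretches were on chromosomes 3, 8, 10, 15 and 18. On chromosome 10, from 77986947 to 78063622, the glycolytic Pfkl (0.53 ± 0.09), Dnmt3l and Aire rose. Aire, the thymic regulator of tissue antigens, overlaps Dnmt3l on the other strand, and the library kit does not mark strand, so its 26.1 and 25.2 CPM in Pcgf5KO and 6.66 CPM in WT cannot be told apart from Dnmt3l reads. On chromosome 15 the keratins Krt7, Krt8 and Krt18 fell and, from 102176998 to 102257517, Csad, Zfp740, Itgb7 and Rarg rose by 0.36 to 0.75 on the log2 scale. On chromosome 8, Irs2, the insulin receptor substrate, fell beside Col4a1 and Col4a2, with 14.3 and 15 CPM in Pcgf5KO and 31.4 CPM in WT (−1.10 ± 0.18). On chromosome 18 the cadherins Cdh2, Dsc2 and Dsg2 fell, and on chromosome 3 Manba rose and Slc39a8 and Ppp3ca fell. By whole chromosome, the called share of genes tested in the 7 full libraries was 6.6% on chromosome 18, 6.53% on the X and 6.38% on chromosome 16. Of all genes tested in either set, 3.94% were called. Chromosomes 10 and 11 followed with 5.23% and 5.19%, chromosome 8 had 2.22%, and none of 9 genes on the Y was called. The X had 9 rises and 28 falls of 567 genes and chromosome 11 had 45 rises and 23 falls of 1309. Without the DKO libraries, where 26.6% of all genes were called, the shares were 32.03% on chromosome 18, 31.99% on the X, 31.77% on chromosome 10 and 31.6% on chromosome 11.

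Pcgf5KO and Pcgf3KO cells, which lack alternative subunits of like complexes, were compared directly in the 7 full libraries, 2 of each, in CPM. There 14 genes were higher in Pcgf5KO (0.0893%) and 8 lower (0.0511%) of 15669. Without the DKO libraries 919 were higher and 984 lower, so the low number does not show that the 2 knockouts are alike. Platr13 had 6.98 and 8.98 CPM in Pcgf5KO and 0.504 and 0.671 CPM in Pcgf3KO (log2 fold change 3.75 ± 0.27, adjusted p = 0.000809). Smtnl1 had 9.35 and 10.3 CPM in Pcgf5KO, against 2.22 and 2.52 CPM in Pcgf3KO (2.05 ± 0.19). Its neighbour Ube2l6 had 21.2 and 21.4 CPM in Pcgf5KO, against 5.89 and 6.54 CPM in Pcgf3KO (1.78 ± 0.14). For these genes DKO libraries lay near Pcgf5KO, with 8.85 and 8.75 CPM for Platr13 and 15 and 17.4 CPM for Ube2l6. Efhc2, an X-linked EF-hand gene, had 15.7 and 12.4 CPM in Pcgf5KO, against 2.42 and 2.12 CPM in Pcgf3KO (2.63 ± 0.19, adjusted p = 0.000809). It was low in DKO as well, at 2.27 and 2.17 CPM, and its level in Pcgf5KO did not pass against WT (21.6 CPM, −0.62, adjusted p = 0.122). Pgk1, an X-linked glycolytic kinase gene, had 854 and 838 CPM in Pcgf5KO, against 390.2 and 398 CPM in Pcgf3KO (1.10 ± 0.06, adjusted p = 0.000283). Xlr3a, which has near-identical copies, and Zfp990 were also higher in Pcgf5KO (2.43 ± 0.29 and 1.57 ± 0.15). On the lower side, Usp26, an X-linked deubiquitinase gene, had 45.3 and 46.8 CPM in Pcgf5KO, against 101.5 and 92.0 CPM in Pcgf3KO (−1.07 ± 0.09, adjusted p = 0.00154). Tfcp2l1, a naive pluripotency factor, had 84.3 and 83.9 CPM in Pcgf5KO, against 142 and 146 CPM in Pcgf3KO (−0.78 ± 0.08, adjusted p = 0.00427). Usp26 had fallen against WT too (111 CPM, −1.27 ± 0.10), whereas Tfcp2l1 had not passed (−0.30, adjusted p = 0.131). Slc2a3 was lower in Pcgf5KO than in Pcgf3KO (417 and 427 CPM, −0.66 ± 0.07), as was Rhox6, a reproductive homeobox gene, with 4.79 and 4.04 CPM in Pcgf5KO, against 11.5 and 11.2 CPM in Pcgf3KO (−1.35 ± 0.17). Of the 22 genes, 8 are on the X chromosome, which holds 567 of the 15669 genes tested in the 7 full libraries. Both knockouts share the WT libraries, so their own changes against WT are not set against each other.

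**Figure D5:**
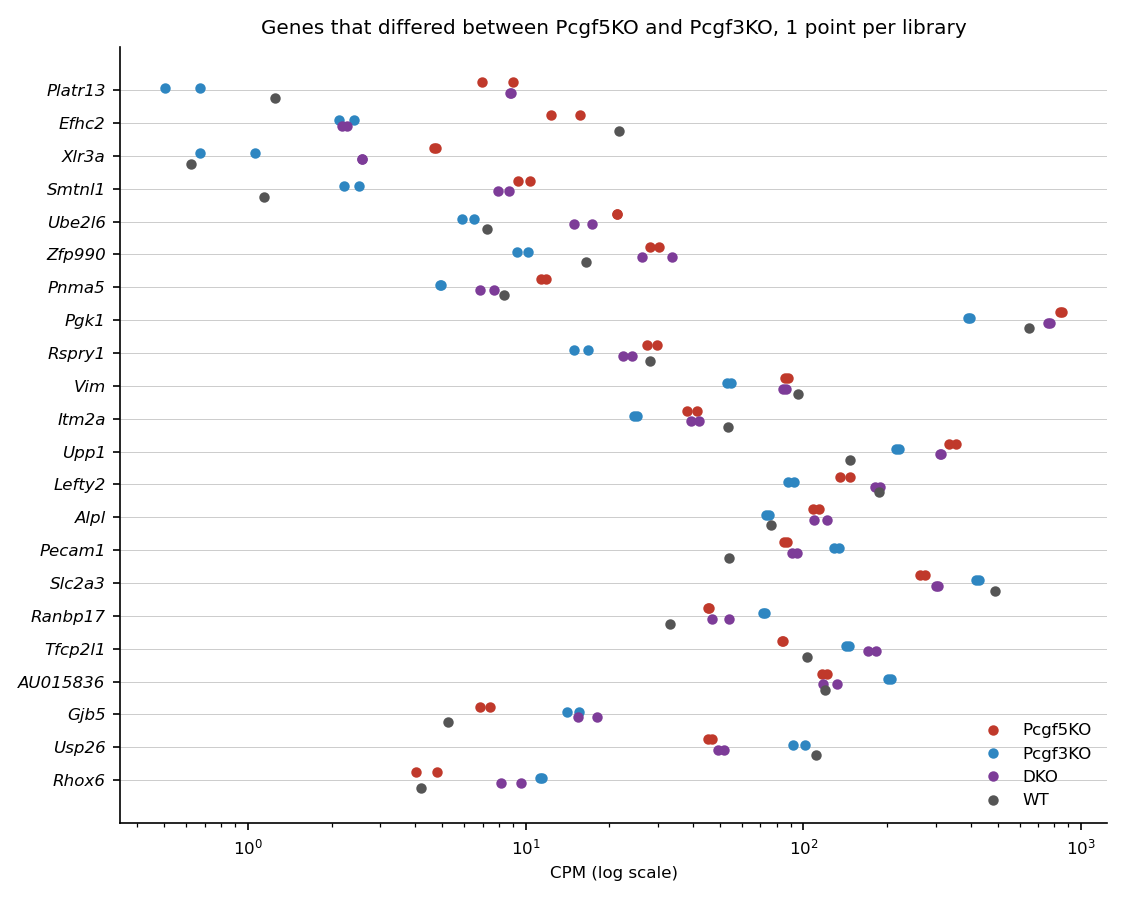
CPM (horizontal axis, log scale) of the 22 genes that differed between Pcgf5KO and Pcgf3KO in the 7 full libraries, 1 point per library and 1 colour per group. Platr13 has 6.98 and 8.98 CPM in Pcgf5KO and 0.504 and 0.671 CPM in Pcgf3KO, and Rhox6, at the bottom, has 4.79 and 4.04 CPM in Pcgf5KO and 11.5 and 11.2 CPM in Pcgf3KO.

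Against DKO cells, which lack Pcgf3 in addition, 201 genes were higher in Pcgf5KO (1.28%) and 156 lower (0.996%) of 15669, together 2.28%. When the fit held only the libraries of those 2 groups, 3 and 4 were called, and leaving out DKO replicate 2 gave 3350 and 3233, so these calls rest on the spread between the DKO libraries. Acta2, smooth muscle actin, had 7.87 and 8.73 CPM in Pcgf5KO, against 0.685 and 1.04 CPM in DKO (3.25 ± 0.25, adjusted p = 0.000825). Tnc, the matrix protein tenascin C, had 12 and 11.3 listed-gene CPM in Pcgf5KO, against 1.19 and 1.12 in DKO, with 3.31 ± 0.48 in the 7-library fit (adjusted p = 0.018). Tnc was also higher in Pcgf5KO than in both WT libraries (4.29 and 2.89, 1.68 ± 0.40, adjusted p = 0.0258), on 36 and 25 counts against 15 and 9. That call against WT was lost in DESeq2 and when any WT or Pcgf5KO library was left out. Igf2bp3, an oncofetal RNA-binding protein gene, had 27.4 and 28.1 CPM in Pcgf5KO, against 9.75 and 5.58 CPM in DKO (1.86 ± 0.21). It overlaps Malsu1 on the other strand, and the library kit does not mark strand. On the lower side, Rhox5, an X-linked homeobox gene, had 14.2 and 18.5 CPM in Pcgf5KO, against 63.3 and 77.2 CPM in DKO (−2.12 ± 0.15, adjusted p = 0.000701). Its level in Pcgf5KO did not pass against WT (13.3 CPM, adjusted p = 0.463). Sema5a, an axon guidance gene, had 9.53 and 8.98 CPM in Pcgf5KO, against 32.3 and 25.9 CPM in DKO (−1.65 ± 0.14). Otx2, an epiblast and forebrain factor, had 4.85 and 4.29 CPM in Pcgf5KO, against 13.8 and 9.84 CPM in DKO (−1.36 ± 0.21). Hand1 was lower as well (−2.34 ± 0.45, adjusted p = 0.0372), against DKO libraries that differ from each other as given above.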

How the data were processed

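The authors deposited raw read counts for each Ensembl gene in a table for each library. The submitters' processing notes list TopHat2 2.0.12, Cufflinks 2.2.1, HTSeq 0.6.0 and mm10 without saying which step used them. Neither the strand setting nor the annotation release is given in the sources used here. Libraries were made with a kit that does not mark strand, per the labels' protocols. Of 47069 identifiers, 46488 were matched to a symbol (GENCODE M21), and 0 entries named no gene.

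The counts were tested with edgeR 4.0.16 (R 4.3.3; glmQLFit, glmQLFTest, TMM, filterByExpr, group as the only term, all groups in 1 fit, and p adjusted over all genes of the fit). The 8-library fit tested 2702 genes with 4 residual degrees of freedom and the 7-library fit 15669 with 3, keeping 99.92% and 99.93% of the counts. A gene is reported from the first where it was tested there. Contrasts with Pcgf3KO and DKO come from the second. The ± is a standard error. DESeq2 1.42.0, RLE factors, no filter, a replicate block and left-out libraries were alternatives. The fits were tested on simulated data.

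Named genes have a mean log2 CPM of 2 or more and groups that do not overlap: the 15 largest rises and 15 largest falls per fit against WT and 5 each way in the other contrasts, plus the Pcgf genes, the 4 members of lowest p in a list, 4 feeder markers and genes of neighbouring runs. Pou5f1, Sox2, Nanog, Esrrb, Rnf2, Ring1, Auts2 and Tfap2c were added after their values were seen. Pgk1 and Xlr3a, called against Pcgf3KO, were also named outside this rule. The members, lists and tests were chosen with earlier results of these data known. Some genes are not reported here.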

Additional observations from a re-analysis of the deposited data

How the results depend on the processing

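Same-numbered libraries did not deviate together (correlation −0.0618 between WT and Pcgf5KO, −0.0479 to 0.196 for other pairs), so the numbers are not taken as pairs. With the replicate block, calls against WT were 303 in the 8-library fit (233 without it) and 688 in the 7-library fit (468 without it), 62 against Pcgf3KO (22 without it) and 1532 against DKO (357 without it).

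With no filter on low counts, 354, 1222, 224 and 2312 genes were called in the same 4 contrasts. DESeq2 called 79 against Pcgf3KO and 804 against DKO, and RLE size factors kept each count within 1.5 times. Leaving out 1 library gave 33 to 629, 37 to 4119, 3 to 1909 and 3 to 6583. Leaving out both DKO libraries gave 629, 4120 and 1903 in the contrasts with WT and Pcgf3KO, and leaving out both Pcgf3KO libraries gave 7 against DKO. With only the libraries of the 2 groups, the counts were 503, 4882, 1874 and 7. Which libraries share the estimate of spread thus sets the number of calls; the cause of the DKO spread was not tested.

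Of 143 called genes that the naming rule gives, 39 passed in every alternative, and of 1806 values 1436 kept their direction and side, 370 lost the threshold and 0 reversed. Fn1, not called, had −0.10 without WT replicate 1 and 0.31 without WT replicate 2. With 1 or 2 libraries a group, a missed threshold is no sign of equal levels.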
